A study of Homo sapiens with 3 samples.

Results

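The genes described are the 10 that make, load, recover and break down acetylcholine or receive it at muscarinic receptors, out of 78932 genes in the deposited tables. They were chosen by gene symbol: the markers CHAT, SLC18A3 and SLC5A7, the esterases ACHE and BCHE, and the receptors CHRM1 to CHRM5. Each symbol matched 1 protein-coding gene. The samples were 3 untreated, wild-type preparations of iCell GlutaNeurons (iGluta), commercial human neurons made from induced pluripotent stem cells and labelled glutamatergic, cultured for 3 weeks, so the study has 1 group and no control. They are 1 commercial line, and the labels call them triplicates without saying that they were separate cultures, so each SD and p-value covers only how these samples varied, and that variation may be technical. In bulk RNA, fewer cells of a type and less RNA per cell cannot be told apart, and these data do not show which cells of the culture held the transcripts.

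A cholinergic neuron makes acetylcholine from choline and acetyl-CoA with choline acetyltransferase (CHAT), packs it into vesicles with the vesicular acetylcholine transporter (SLC18A3), and after release takes up choline again through the high-affinity transporter SLC5A7. Acetylcholinesterase (ACHE) ends the signal at the synapse, and butyrylcholinesterase (BCHE) splits a wider range of choline esters. Muscarinic receptors are G protein-coupled: CHRM1, CHRM3 and CHRM5 act mainly through Gq and phospholipase C, while CHRM2 and CHRM4 act through Gi and lower cyclic AMP. In the forebrain, acetylcholine comes mostly from basal forebrain projection neurons and striatal interneurons, and many neurons that make none carry muscarinic receptors or ACHE.

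Levels are given in TPM, a length-corrected share of all transcripts, for libraries 1, 2 and 3 (replicates 1, 2 and 3 of the titles). The libraries held 41079348, 60092991 and 34732725 estimated counts. Mitochondrially encoded genes took 4.25, 4.01 and 10.6% of all TPM, so library 3 stood apart. Against the label, the vesicular glutamate transporter SLC17A6 was at 80.7, 105 and 160.1 TPM, and the GABA-synthesising enzyme GAD1 was at 203, 234 and 118, so markers of both transmitters were present. The glutamate transporters SLC17A7 and SLC17A8 were at 13.8 ± 5.30 and 0.61 ± 0.46 TPM.

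CHAT and SLC18A3 share a locus, with SLC18A3 within the CHAT span. The start regions of the synthesis, loading and reuptake genes are shown as a description, and their part in the levels was not tested. In GRCh38.p14, CHAT runs from 49609095 to 49667942 on chromosome 10 and SLC18A3 from 49610310 to 49612720, on the same strand, 1215 bases after the first CHAT start. In GENCODE release 29, 1 of 12 CHAT transcripts started upstream of SLC18A3, and 0 bases of CHAT exons overlapped the 2420 bases of the single SLC18A3 exon. The pair therefore shared no annotated exon in that release, and because the strand is the same, strand does not tell their reads apart. SLC5A7 lies on chromosome 2 from 107986524 to 108013994. The 250 bases before each RefSeq start (GRCh38.p14, plus strand) are given 5′ to 3′, with capitals for the GC box (GGGCGG, or CCGCCC on the other strand) and the cyclic AMP response element half-site (TGACG, or CGTCA).
SLC18A3, chr10:49610060-49610309: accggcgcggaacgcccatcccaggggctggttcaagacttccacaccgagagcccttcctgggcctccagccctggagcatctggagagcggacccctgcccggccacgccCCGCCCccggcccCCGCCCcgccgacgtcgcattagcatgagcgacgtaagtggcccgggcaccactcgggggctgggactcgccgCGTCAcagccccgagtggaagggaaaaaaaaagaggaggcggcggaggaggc
CHAT first start, chr10:49608845-49609094: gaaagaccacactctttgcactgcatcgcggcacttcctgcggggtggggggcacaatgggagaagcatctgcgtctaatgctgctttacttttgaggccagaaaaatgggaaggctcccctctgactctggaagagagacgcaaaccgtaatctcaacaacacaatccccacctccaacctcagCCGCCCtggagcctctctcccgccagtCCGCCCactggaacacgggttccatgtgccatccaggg
CHAT second start, chr10:49612848-49613097: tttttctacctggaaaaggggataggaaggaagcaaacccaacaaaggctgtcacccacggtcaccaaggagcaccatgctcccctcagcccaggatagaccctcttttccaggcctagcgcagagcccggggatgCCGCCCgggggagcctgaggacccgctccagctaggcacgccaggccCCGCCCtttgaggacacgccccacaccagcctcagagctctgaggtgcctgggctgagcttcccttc
CHAT last start, chr10:49613787-49614036: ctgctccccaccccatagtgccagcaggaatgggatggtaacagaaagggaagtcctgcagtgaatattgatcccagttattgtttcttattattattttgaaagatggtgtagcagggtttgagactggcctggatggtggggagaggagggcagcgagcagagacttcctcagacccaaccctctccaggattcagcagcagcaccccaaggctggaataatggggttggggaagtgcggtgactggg
SLC5A7, chr2:107986274-107986523: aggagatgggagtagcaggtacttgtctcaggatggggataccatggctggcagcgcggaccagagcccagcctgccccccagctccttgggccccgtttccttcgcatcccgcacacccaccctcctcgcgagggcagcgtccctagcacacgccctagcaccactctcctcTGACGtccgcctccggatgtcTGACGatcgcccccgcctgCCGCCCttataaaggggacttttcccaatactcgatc

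The SLC18A3 window held 25 CpG dinucleotides and the SLC5A7 window 17, against 10, 9 and 2 in the CHAT windows and a median of 11 over 35116 RefSeq windows of the same length. A GC box was present in the SLC18A3 and SLC5A7 windows and in the first and second CHAT windows, and 42.6% of all windows held at least 1. The half-site occurred in the SLC18A3 window (1) and the SLC5A7 window (2) and in 21.2% of all windows. No half-site was found in the CHAT windows, which says only that these letters are not there. The E-box CAGATG, searched on both strands like the others, was in the SLC18A3 and first CHAT windows and in 12.2% of all windows. The E-box CAGCTG and the homeodomain motif TAATTA, which were in 13.99% and 4.35% of all windows, were in none of these 5.

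**Figure D1:**
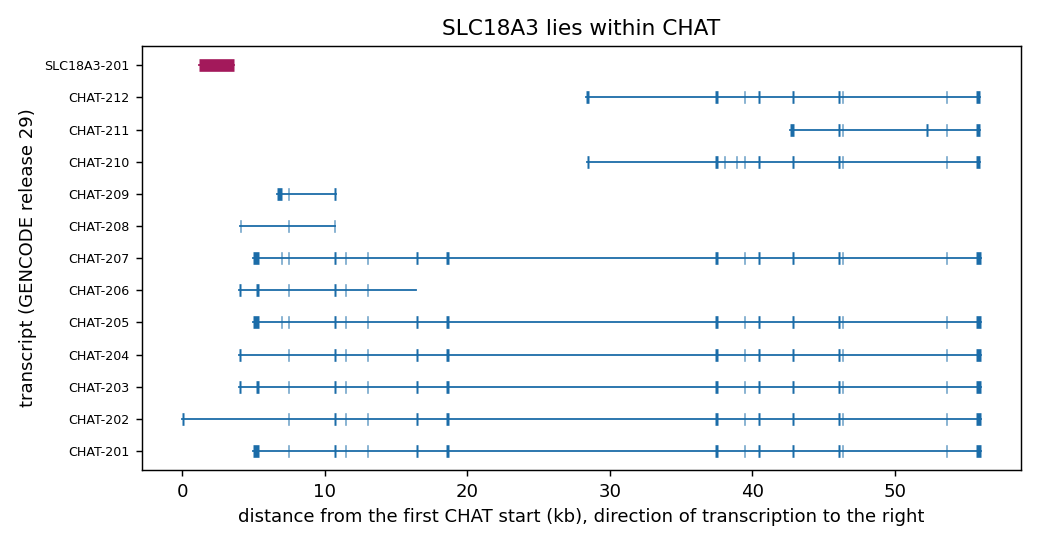
Exons (thick bars) and introns (lines) of the GENCODE release 29 transcripts of CHAT (blue, 12 transcripts) and SLC18A3 (red, 1 transcript), by distance in kb from the first CHAT start. The SLC18A3 exon lies in the first intron of the only CHAT transcript that starts upstream of it, and the other CHAT transcripts start downstream.

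All 3 presynaptic cholinergic markers were present, at very different levels. CHAT was the lowest at 2.11, 2.0 and 2.13 TPM (mean 2.08 ± 0.07, SD, n = 3; 236, 297 and 191 counts). SLC18A3 stood at 25.2, 20.9 and 24.1 TPM (23.4 ± 2.25). SLC5A7 stood at 47.8, 60.5 and 124 TPM (77.4 ± 40.8). CHAT and SLC18A3 were nearly level across the libraries, while SLC5A7 was highest in library 3, and the ranges of the 3 genes did not overlap.

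Each gene was set against a fixed bar of 1 TPM in a limma fit over 38992 genes, with Benjamini-Hochberg adjustment. SLC18A3 and SLC5A7 passed with adjusted p of 2.62e-09 and 7.25e-08, and CHAT with 0.00426. The CHAT call was lost without library 1 (adjusted p = 0.0597) or without library 2 (adjusted p = 0.0563), where only 2 libraries remained, although its level moved little. Against a bar of 2 TPM, CHAT was undecided (adjusted p = 0.828).

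Within each library the transport genes exceeded the synthetic enzyme. The log2 ratio of SLC18A3 over CHAT was 3.52, 3.32 and 3.44 (3.43 ± 0.10), a 10.8-fold difference in TPM. The log2 ratio of SLC5A7 over CHAT was 4.44, 4.85 and 5.80 (5.03 ± 0.70), or 32.6-fold. SLC5A7 also exceeded SLC18A3 by 1.60 ± 0.72, or 3.04-fold, but the mean was within 2 SD of 0 when library 2 was left out. On CPM, that is counts per library total with no length correction, the last ratio was 2.52 ± 0.81. The sign was the same in 3 of 3 libraries for each of these ratios. With 3 libraries an exact sign-flip permutation test cannot go below p = 0.25, which all 3 ratios reached (0.286 after adjustment over 16 ratios), so a ratio was called larger than the spread when its sign held in all libraries and its mean exceeded 2 SD.

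The size of the gap between SLC18A3 and CHAT depended on the length correction. On CPM the log2 ratio of SLC18A3 over CHAT was 2.31 ± 0.10. The length that the deposited tables imply for CHAT (counts divided by TPM) was 2.29, 2.25 and 2.15 times that of SLC18A3 in the 3 libraries. In GENCODE release 29 CHAT ended 2838 bases before its RefSeq end, and the annotation release behind the deposited TPM is not named in the sources used here.

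**Figure D2:**
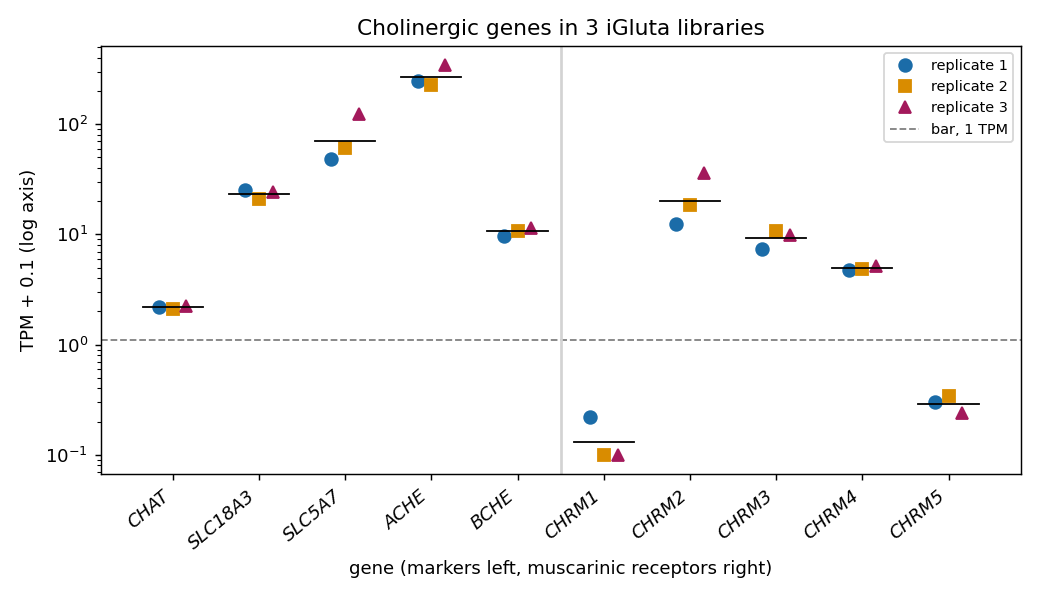
TPM + 0.1 on a log axis for the 10 genes in each of the 3 libraries (symbols), with the mean of the log values (black line) and the bar of 1 TPM (dashed). ACHE was highest at 228 to 342 TPM, CHAT stood just above the bar at 2.0 to 2.13 TPM, and CHRM1 and CHRM5 lay below it.

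ACHE was the most abundant of the 10 genes. It was at 246, 228 and 342 TPM (272 ± 61.3), rank 577 of all genes by mean TPM, with an adjusted p of 2.26e-10 against the bar (limma). BCHE stood at 9.66, 10.6 and 11.4 TPM (10.6 ± 0.89; adjusted p = 5.51e-08, limma). Every library had far more ACHE than BCHE, and their ranges did not overlap. The log2 ratio of ACHE over BCHE was 4.65 ± 0.24, a 25.2-fold difference (exact permutation p = 0.25), and that of ACHE over CHAT was 6.94 ± 0.28, or 123-fold (exact permutation p = 0.25). The latter was 5.62 ± 0.33 on CPM. ACHE lies on chromosome 7 from 100889994 to 100896994 and BCHE on chromosome 3 from 165772904 to 165837423, and neither overlapped another RefSeq gene.

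The genes that anchor ACHE outside the cell lay on either side of the bar. PRIMA1, which ties ACHE tetramers to neuronal membranes in the brain, was below the bar at 0.18, 0.11 and 0.11 TPM (adjusted p = 5.39e-04, limma). COLQ, the collagen tail that anchors ACHE at the neuromuscular junction, was above it at 4.35, 4.42 and 2.89 TPM (adjusted p = 5.80e-05, limma).

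Of the 5 muscarinic receptors, 3 were above the bar and 2 below it. The Gi-coupled CHRM2 was highest on TPM at 12.3, 18.3 and 35.8 (22.1 ± 12.2; adjusted p = 1.62e-06, limma). The Gi-coupled CHRM4 was at 4.63, 4.75 and 5.06 TPM (4.81 ± 0.22; adjusted p = 5.04e-06). CHRM2 was lowest in library 1 and highest in library 3, whereas CHRM4 was nearly level. The log2 ratio of CHRM2 over CHRM4 was 1.39, 1.92 and 2.80 (2.04 ± 0.71; exact permutation p = 0.25). The CPM value was 2.69 ± 0.60.

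Among the Gq-coupled receptors only CHRM3 passed, at 7.26, 10.7 and 9.79 TPM (9.25 ± 1.79; adjusted p = 3.64e-07, limma). CHRM5 was at 0.20, 0.24 and 0.14 TPM, from 18.07, 35.85 and 14.39 estimated counts (adjusted p = 0.00187, below the bar). CHRM1 had 2, 0 and 0 counts (0.12, 0.0 and 0.0 TPM; adjusted p = 5.31e-05, below). A count of 0 allows up to 3 counts, or 0.0499 and 0.0864 CPM in libraries 2 and 3 for counting error only, so CHRM1 was not detectable above that floor. CHRM1 is the main Gq-coupled muscarinic receptor of the adult cerebral cortex and hippocampus.

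The order of CHRM2 and CHRM3 was not settled. On TPM, CHRM2 exceeded CHRM3 by a log2 ratio of 0.75, 0.77 and 1.86 (1.13 ± 0.64), which was within 2 SD of 0, and without library 3 the mean was 0.76 and over 2 SD from 0. On CPM the log2 ratio was -0.07, -0.10 and 1.06, so CHRM3 had slightly more counts in libraries 1 and 2 (1381 against 1313, and 2512 against 2344) and fewer in library 3 (1339 against 2798). CHRM3 exceeded CHRM4 by 0.91 ± 0.26 on TPM and by 2.39 ± 0.23 on CPM.

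CHRM2 made up 50.2, 53.8 and 70.5% of the summed muscarinic TPM, CHRM3 29.6, 31.5 and 19.3%, and CHRM4 18.87, 13.97 and 9.96%. The summed level was 24.5, 34.0 and 50.8 TPM, and library 3 had the highest total and the highest CHRM2 share. Gi-coupled genes together reached 17.0, 23.0 and 40.9 TPM, and Gq-coupled genes 7.58, 10.9 and 9.93. The Gi to Gq log2 ratio was 1.15, 1.07 and 2.03 (1.42 ± 0.53; exact permutation p = 0.25), and the CPM value of 0.49 ± 0.60 lay within 2 SD of 0.

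**Figure D3:**
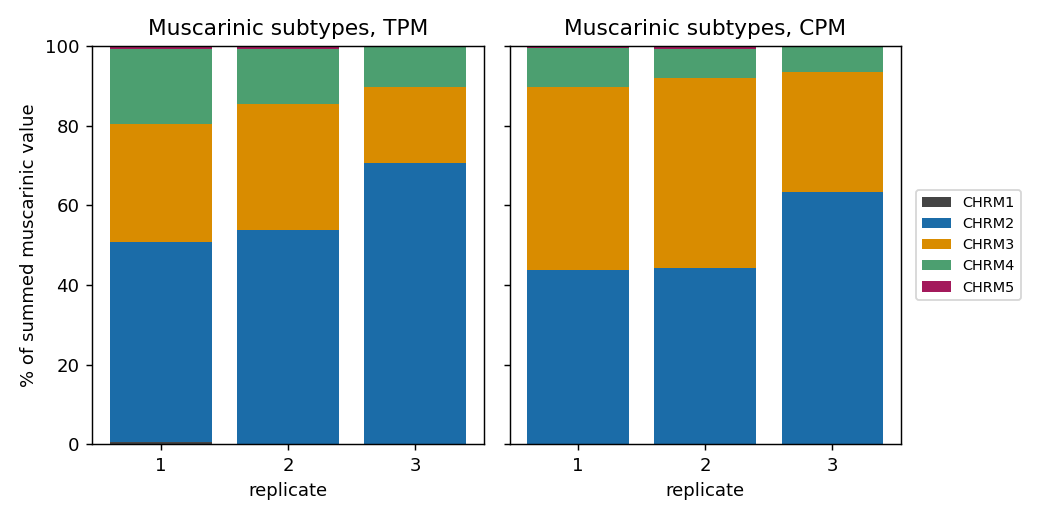
Share of each muscarinic receptor gene in the summed muscarinic TPM (left) or CPM (right), in percent, for libraries 1, 2 and 3. CHRM2 took 50.2 to 70.5% on TPM and 43.7 to 63.3% on CPM, with its highest share in library 3 on both scales, and CHRM1 and CHRM5 are barely visible.

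The receptor genes differ in how far neighbouring genes could add to their counts. CHRM2 spans chromosome 7 from 136868652 to 137020213 and holds the microRNA gene MIR490, listed at 0 in every library, and the pseudogene KRT8P51, at 0, 0.71 and 0 TPM. The long noncoding gene LOC349160 overlaps 121441 bases of the CHRM2 span, and its level was not analysed here. CHRM3 spans chromosome 1 from 239386568 to 239915450, and its antisense genes CHRM3-AS1 and CHRM3-AS2 were at 0 and at most 0.07 TPM. The long noncoding genes LOC105373225, LOC124904567 and LOC105373224 overlap 42892, 2500 and 851 bases of the CHRM3 span, and their levels were not analysed here. CHRM4, on chromosome 11 from 46383789 to 46391776, overlaps by 49 bases at its end the growth factor gene MDK, which was at 439, 375 and 408 TPM. CHRM5, on chromosome 15 from 33968497 to 34067458, lies wholly within the span of AVEN, an apoptosis inhibitor gene on the opposite strand at 28.6, 27.1 and 28.0 TPM. The libraries were strand-specific, but no source used here names the strand setting of the counting, so the CHRM4 and CHRM5 values, and those of the other receptor genes that share bases with an antisense gene, are less certain. CHRM1 lies on chromosome 11 from 62908679 to 62921878, where CHRM1-AS1 and LOC105369333, not analysed here, overlap 8955 and 1719 of its bases.

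Ordered by mean TPM, the genes ran ACHE, SLC5A7, SLC18A3, CHRM2, BCHE, CHRM3, CHRM4, CHAT, CHRM5 and CHRM1. Among neighbours in that order, SLC18A3 and CHRM2 (log2 ratio 0.22 ± 0.80), CHRM2 and BCHE (0.92 ± 0.66), BCHE and CHRM3 (0.20 ± 0.21) and CHRM5 and CHRM1 (1.16 ± 0.67) did not differ beyond their spread on TPM. Without library 1 the ratios of CHRM2 over BCHE (1.21 ± 0.60) and of CHRM5 over CHRM1 (1.51 ± 0.36) were over 2 SD from 0, as were their CPM values of 2.51 ± 0.51 and 2.34 ± 0.47. Without library 2, BCHE over CHRM3 was 0.31 ± 0.13. The other 5 neighbouring pairs did on TPM. ACHE over SLC5A7 was 1.91 ± 0.45 on TPM and 0.79 ± 0.54 on CPM, where it was within 2 SD of 0. On CPM, CHRM2 and CHRM3 stood ahead of SLC18A3 and BCHE, and the BCHE to CHRM3 log2 ratio turned to -2.22 ± 0.18.

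**Figure D4:**
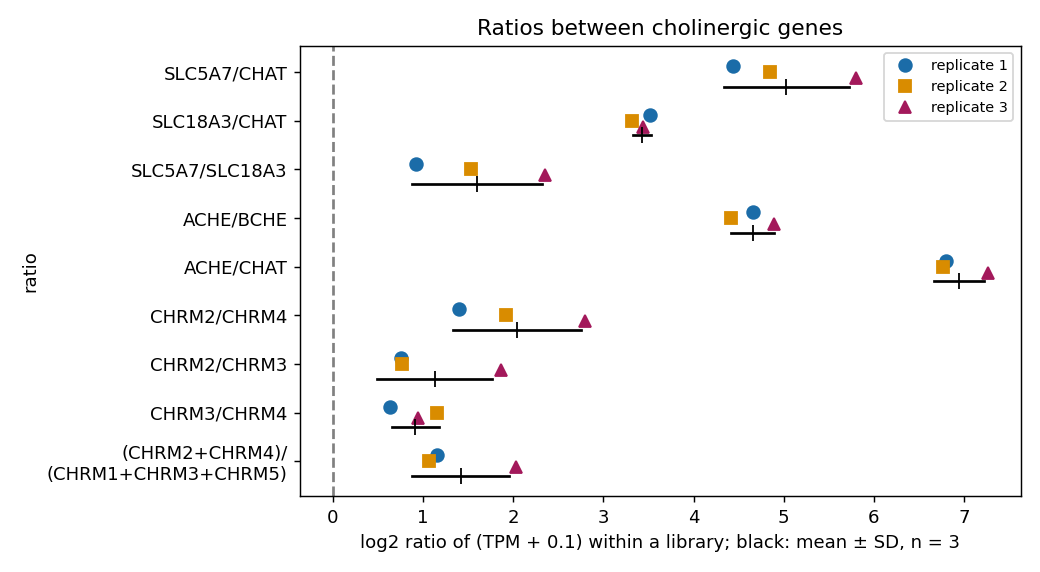
Within-library log2 ratios of TPM + 0.1 for 9 pairs or sums, with each library as a symbol and the mean ± SD (n = 3) in black. Every ratio was positive in all 3 libraries, and those with SLC5A7 or CHRM2 on top had their highest value in library 3 (5.80 for SLC5A7 over CHAT).

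Of the 10 genes 8 were above 1 TPM and 2 below, with none undecided. Of all 38992 genes tested, 40.6% were above and 45.1% below. Of the 17804 protein-coding genes tested, 71.2% were above and 19.9% below, so the count for the cholinergic genes was near that of protein-coding genes in general. The median of their mean TPM was 9.91, against 12.5 over the protein-coding genes and 0.73 over all genes tested.

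SLC5A7 and CHRM2 varied most between the libraries. The highest library exceeded the lowest 2.59-fold for SLC5A7 and 2.91-fold for CHRM2 in TPM, and 2.98-fold and 2.52-fold in CPM. Among 18192 genes with a mean of at least 1 TPM, 6.54% had a wider log2 range than SLC5A7 and 5.24% a wider range than CHRM2. On TPM, CHAT (1.06-fold) and CHRM4 (1.09-fold) were among the steadiest, with 95.5% and 91.1% of genes ranging more widely. In CPM their folds were larger, at 1.16 and 1.20. The median log2 range of the 8 genes above the bar was 0.41, against 0.40 over all 18192 genes.

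Library 3 set the high values of SLC5A7, CHRM2 and ACHE. It deviated from the mean of the other libraries by 1.20, 1.25 and 0.53 on the log2 scale in these genes, and 7.66% of the 18192 genes with a mean of at least 1 TPM deviated by more than 1 there. Without library 3 the log2 ranges fell to 0.34, 0.57 and 0.11. In the same library the glutamatergic genes SLC17A6 and SLC17A7 deviated by 0.80 and 0.88, but SLC17A8, at only 0.16 TPM there, by -1.80. The GABAergic genes GAD1, GAD2 and SLC32A1 deviated by -0.88, -1.18 and -1.04, and mitochondrial genes took their highest share of TPM. Their part in the cholinergic values was not tested.

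**Figure D5:**
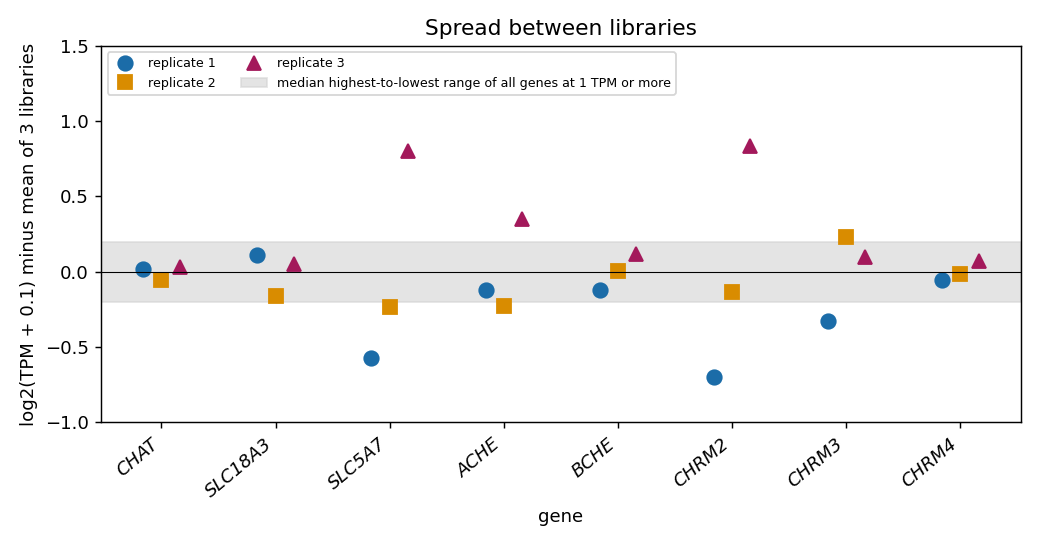
Deviation of each library from the 3-library mean of log2(TPM + 0.1) for the 8 genes with a mean of at least 1 TPM, with a grey band as wide as the median range of all such genes (0.40). SLC5A7 and CHRM2 reach well outside the band in library 3, while CHAT, SLC18A3, BCHE and CHRM4 stay inside it.

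Among 64 related genes at 1 TPM or more, the library profile closest to SLC5A7 and to CHRM2 was that of the homeobox gene GBX2 (2.1, 2.71 and 6.8 TPM), with root mean square log2 differences of 0.13 and 0.14 over 3 libraries. The closest to ACHE was DBH, the enzyme that makes noradrenaline, at 0.02. GNAI2 was closest to CHAT (0.02), SLC25A1 to SLC18A3 (0.06), PLD2 to CHRM3 (0.05) and GRK6 to CHRM4 (0.02). With 3 libraries many genes share a profile, and these are given as a description.

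Regulators that specify cholinergic neurons were present in part. Of 11 such transcription factor genes 6 were above the bar, a lower share than the 71.2% of protein-coding genes. The count was 3 without library 1 or without library 2, and 1 against a bar of 2 TPM. ISL1, a LIM homeobox factor of several cholinergic types, was highest at 66.5, 77.0 and 55.6 TPM. GBX2 had a mean of 3.87 ± 2.56 TPM and NKX2-1, a factor of the ventral forebrain, 2.56 ± 0.07. LHX8, which directs basal forebrain and striatal cholinergic fate, was at 2.18, 2.42 and 2.30 TPM (adjusted p = 0.0017, limma). The motor neuron factors MNX1 and LHX3 were below the bar at 0.02 ± 0.02 and 0.06 ± 0.04 TPM. GBX1 was also below it at 0.50, 0.04 and 0.03 TPM, and LHX4 was undecided at 0.86 ± 0.30 TPM. LHX8, MNX1, LHX3, GBX1 and LHX4 were named after their values were seen.

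Receptors for factors that act on cholinergic neurons were above the bar in 5 of 5 cases, as were 71.2% of protein-coding genes. They were led by CNTFR at 97.5 ± 15.0 TPM, LIFR at 18.8 ± 5.93 and IL6ST at 16.4 ± 3.99, the subunits that receive ciliary neurotrophic factor. The neurotrophin receptor NGFR, characteristic of basal forebrain cholinergic neurons, was at 7.90 ± 1.41 TPM and was named after its value was seen. REST, a repressor of neuronal genes that acts at the cholinergic locus, was at 0.04, 0.12 and 0.16 TPM (below), and its corepressor RCOR1 at 7.47 ± 1.01 (above).

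Of the genes that feed acetylcholine synthesis, 12 of 15 for choline supply and use and 4 of 4 for acetyl-CoA supply were above the bar, against 71.2% of protein-coding genes, so the first share was near the background. The choline transporter-like SLC44A2 was at 74.3 ± 1.11 TPM, and the choline kinases CHKB and CHKA were at 40.9 ± 0.56 and 39.0 ± 5.61. ACLY, which makes cytosolic acetyl-CoA, was at 198 ± 29.6 TPM, the citrate carrier SLC25A1 at 162 ± 15.6, PDHA1 of pyruvate dehydrogenase at 92.0 ± 2.64 and ACSS2, which makes acetyl-CoA from acetate, at 44.3 ± 5.79. These genes also serve membrane lipid and energy metabolism in every cell. Of the other vesicular amine transporters, SLC18B1 was at 13.9 ± 1.46, SLC18A2 at 2.82 ± 1.01 and SLC18A1 at 2.06 ± 0.39 TPM. All 3 were above the bar, and 1 was without library 1, without library 2 or against a bar of 2 TPM.

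Downstream of the receptors, 8 of 9 Gi effectors, 8 of 12 Gq effectors and 6 of 6 genes of receptor desensitisation were above the bar, beside the same 71.2% of protein-coding genes. The Gi count was 6 without library 2. Against 1 CPM, 9 Gi effectors and 9 or 10 Gq effectors were above, depending on the scaling. The Gi and Go alpha subunits were abundant, with GNAO1 at 356 ± 14.3, GNAI2 at 199 ± 7.72 and GNAI1 at 186 ± 17.9 TPM. GNAQ and GNA11, the alpha subunits that couple CHRM3 to phospholipase C, were at 75.3 ± 16.6 and 57.8 ± 5.26 TPM. The kinase GRK2, which phosphorylates active receptors, was at 131 ± 8.53 TPM, the arrestin ARRB2 at 62.0 ± 4.02 and GRK6 at 45.0 ± 1.93. Over all 88 related genes 61 were above the bar, also near the share of protein-coding genes.

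Markers of other cells that can carry cholinergic genes were checked. Of the protein-coding genes tested, 71.2% were above the bar and 19.9% below. The noradrenergic list, which shares PHOX2A with the factors above, had 3 of 7 genes above the bar: TH at 219 ± 63.8, DBH at 4.57 ± 1.13 and PHOX2A at 2.48 ± 1.37 TPM. That count was 2 with any library left out, against a bar of 2 TPM, and against 1 CPM under all 3 scalings. SLC6A2, HAND2 and GATA3 of sympathetic neurons were below the bar, at a mean of at most 0.01 TPM, and all 3 were named after their values were seen. Of 4 muscle genes (CHRNA1, CHRND, CHRNG and MYOG) 0 were above (limma), CHRNG was listed at 0, and their summed level was 0.31, 0.30 and 0.16 TPM. The glial genes GFAP (0.81, 0.80 and 0.86 TPM), AQP4 (0.88, 0.83 and 0.81) and SOX10 (0.85, 0.44 and 0.02) were undecided against the bar (limma). On CPM, AQP4 was above and SOX10 below a bar of 1 CPM under all 3 scalings (limma).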

How the data were processed

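RNA of 3 iGluta samples was sequenced from polyadenylated, strand-specific libraries as paired reads of 151 bp, per the labels' protocols. The authors deposited estimated counts and TPM values per gene, made with RSEM on GRCh38.p14 per the submitters' processing notes, which name no version or aligner. Counts were rounded for scaling. Totals were 41079348, 60092991 and 34732725 counts, and floors of 3 counts cover counting error only.

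Each gene's log2(TPM + 0.1) was tested against 1 TPM with limma 3.58.1 (R 4.3.3; intercept only, eBayes with trend, 2-sided, Benjamini-Hochberg over all genes with any TPM, threshold 0.05). The log2(TPM + 0.1) scale understates differences of low genes. The step was tested on simulated data. edgeR 4.0.16 and DESeq2 1.42.0 gave alternative scalings; pseudocount, filter, bar, trend and libraries were also varied. Ratios used exact 2-sided sign-flip tests.

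The members and 15 lists of related genes were chosen with earlier results of these data known. Named genes were the members, the 3 highest of each list (all of lists of 4 or fewer), the closest library profiles and overlapping genes; some list genes are not reported here. RefSeq (GRCh38.p14) gave positions and start windows for 10 of 10 members.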

Additional observations from a re-analysis of the deposited data

How the results depend on the processing

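No paired analysis was possible because the study has 1 group. The count of cholinergic genes above the bar was 8 with all libraries and under each alternative, except 7 with a bar of 2 TPM, where CHAT was undecided (log2 difference from the bar 0.053), and 7 without library 1 or 2. The log2 difference of CHAT from 1 TPM was 0.97 to 1.01 with each library left out, and the call held without library 3 only. Among the related genes 51 to 57 were above with a library left out. Of all genes, 13945 to 15154 were above with a library left out and 14056 to 17711 across the 2 other bars.

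Of the ratios, SLC5A7 over SLC18A3 ranged from 1.23 to 1.94 and CHRM2 over CHRM3 from 0.76 to 1.31 with a library left out; the first lost its call without library 2 (1.64) and the second gained one without library 3 (0.76). The ratio of Gi-coupled to Gq-coupled genes lost its call on CPM (0.49). BCHE over CHRM3 turned from 0.20 to -2.22 on CPM, by construction because CPM is not divided by length. CHRM2 over BCHE (2.51) and CHRM5 over CHRM1 (2.34) gained a call on CPM, and both also without library 1, as BCHE over CHRM3 did without library 2. The median log2 range of the 8 genes above the bar was 0.41, and 0.17 to 0.33 with a library left out. Leaving out mitochondrial genes raised the median gene by 0.06, 0.06 and 0.16 in libraries 1, 2 and 3, and the ranges of CHAT (0.09) and CHRM4 (0.13) became 0.19 and 0.22. On CPM these 2 ranges were 0.20 and 0.30 with edgeR scaling, and 0.21 and 0.32 with DESeq2 scaling. The cause of these changes was not tested beyond that. CHRM1 had only 0 to 2 counts, so its level was not resolved below the floor of 3 counts.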

Other observations

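Start windows of the other members differed widely in CpG content. The 250 bases before the CHRM4 start held 38 CpG dinucleotides, and 2.65% of RefSeq windows held more, and those before the CHRM5 and BCHE starts held 2 each.

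The length implied by counts over TPM, relative to SLC18A3, was nearly the same in each library for ACHE (0.865, 0.865 and 0.870), but for CHRM3 it was 3.89, 3.55 and 3.27, for CHRM2 2.18, 1.94 and 1.87, and for SLC5A7 1.78, 1.86 and 2.02. ACHE is listed with 14 transcripts, CHRM3 with 12, CHRM2 with 8 and SLC5A7 with 2. Where this length moves between libraries, fold differences on TPM and on CPM are not the same.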
